A study of Mus musculus with 72 samples.

Results

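The comparison concerns white adipose tissue of mice, labelled eWAT, at zeitgeber time (ZT) 8, a time of day counted in hours on the light schedule. It sets 4 libraries labelled LRE against 4 libraries of a full-body Bmal1 knockout, here called KO, and these are 8 of the 72 libraries in the series. The libraries were chosen by the genotype and time in their titles. The other libraries come from the same 2 genotypes and from wild type (WT), at ZT 0, 4, 8, 12, 16 and 20, with 4 replicates in each group. The labels do not expand LRE, and they give no strain, age, sex, light schedule, feeding regime, promoter or Cre line. Mice with Bmal1 restored only in hepatocytes are known from work on the liver clock, and the sources used here do not state that LRE is such a line. Nor do they say that each replicate was its own animal. The p-values therefore reflect only the spread between these samples, which may be technical. The series text describes a hepatocyte cell line, and the sample labels, which name the tissue, were followed.

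BMAL1 is the transcription factor that pairs with CLOCK to drive the core circadian clock. The pair switches on its own repressors, the period and cryptochrome genes, and this loop gives cells a daily rhythm of transcription. In white fat, clock output includes genes of lipid storage, lipid release and hormone secretion. The series title concerns the part of the liver clock in the rhythms of white fat, and the comparison asks how the fat transcriptome labelled LRE differs from that of the full-body knockout at one time of day.

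The deposited table has 32377 rows of counts and no gene identifier. A transcript is therefore called a feature and, where it is singled out by name, given by its place in the table, where row 1 is the first line of counts. No gene function can be given for any feature. Whether the KO libraries lack Bmal1 transcript, and whether the libraries carry adipocyte markers or markers of another tissue, was not tested, since both need gene names.

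Of 16732 features with a count in the 8 libraries, 1673 had at least 10 counts in at least 4 of them and were tested. LRE libraries held 82925, 97370, 121202 and 72131 counts in replicates 1 to 4, and KO libraries 83095, 69177, 98475 and 165344. Before scaling, a single count equals 8.25 to 13.9 CPM in LRE and 6.05 to 14.5 CPM in KO, where CPM is the count relative to the library total in edgeR's usual unit. Levels of single features are given as CPM after TMM scaling, edgeR's correction of library totals for composition. Total counts did not differ between the genotypes beyond their spread (exact two-sided permutation test over 70 splits, p = 0.743).

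The 4 LRE libraries resembled each other, whereas the 4 KO libraries did not. Over the tested features, rank correlations between LRE libraries ran from 0.74 to 0.82 (6 pairs, median 0.78). Between KO libraries they ran from 0.39 to 0.82 (6 pairs, median 0.64). KO replicates 1 and 4 were close to each other, at 0.82, and far from LRE, with medians of 0.18 and 0.25 against the 4 LRE libraries. KO replicate 3 lay near LRE, at 0.70, and KO replicate 2 in between, at 0.53. These correlations share libraries and features and are given as a description. Counts of 2 libraries of a group differed by more than sampling noise in every pair, with a chi-square per degree of freedom of 1.72 to 2.79 in LRE and 1.93 to 9.62 in KO, so each library was counted as 1 sample.

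KO libraries also spread their counts more widely. LRE libraries had 9084 to 10291 features with a count and KO libraries 10224 to 12905, so the ranges overlapped. The 10 most abundant features held 17.4% ± 1.5 of counts in LRE (SD, n = 4) and 14.0% ± 0.97 in KO, without overlap (exact permutation p = 0.0286, the smallest that 4 against 4 allows; 0.0571 after adjustment over 4 library measures). The tested features held 72.04% ± 0.92 of counts in LRE and 62.6% ± 4.0 in KO, also without overlap and with the same exact p. After all 8 libraries were thinned to 69177 counts, features with a count numbered 8660 to 8956 in LRE and 10069 to 10846 in KO, without overlap (exact permutation p = 0.0286).

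At ZT8, LRE and KO differed at 239 of 1673 features, or 14.3% (edgeR quasi-likelihood F-test, Benjamini-Hochberg adjusted p under 0.05). In LRE 182 features were lower, 10.9% of those tested, and 57 were higher, 3.41%. The lower features moved further. They had a median log2 fold change of -1.92, and 87 of the 182 differed by over 4-fold. The higher ones had a median of 1.34, and 54 of the 57 lay between 2- and 4-fold. The median over all tested features was 0.01, which TMM scaling sets near 0. The size of the count rested on single libraries: it was 569 without KO replicate 3, with 322 lower and 247 higher, and 131 without KO replicate 4, with 119 lower. Without KO replicate 1 it was 134, without LRE replicates 1, 2 and 3 it was 140, 140 and 137, and without both KO replicates 1 and 4 it was 79, of which 74 were lower.

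**Figure D1:**
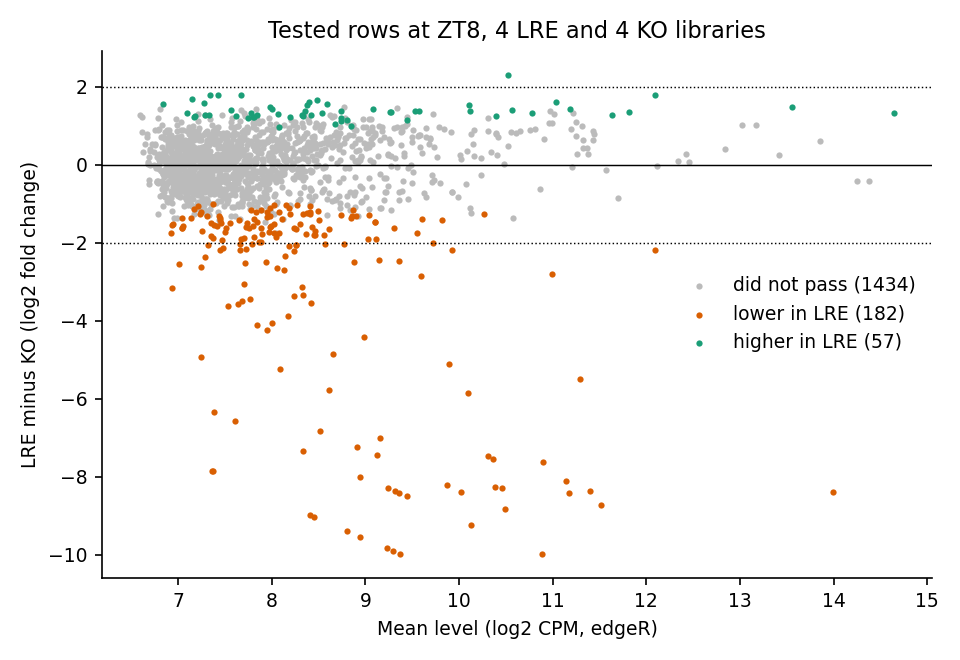
Difference between LRE and KO at ZT8 (vertical axis, log2 fold change) against mean level (horizontal axis, log2 CPM) for 1673 tested features, each a point, from 4 libraries per genotype. Orange points (182) were lower and green points (57) higher in LRE at adjusted p under 0.05, and dotted lines mark 4-fold; the lower features reach far beyond the line, the higher ones stay near or within it.

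Tested features were divided into 3 near-equal classes by the mean of log2 CPM over the 8 libraries. Values near 0 in 1 genotype lower this mean, so a difference itself bears on the class, and the counts by class are a description. In the most abundant class (558) 36 were higher and 59 lower in LRE. In the least abundant (558) 10 were higher and 58 lower, and the middle class (557) held 11 and 65. Most of the higher features were thus in the most abundant class, and the lower ones were spread over all 3. CPM ranges of the 4 LRE and the 4 KO libraries did not overlap for 134 features with LRE above, 8.01% of those tested, and for 181 with LRE below, 10.8%. Of the 57 features called higher, 49 had such separate ranges, as did 143 of the 182 called lower. The filter itself shaped some calls. In all, 70 features passed it through KO libraries alone, 68 of them called lower, and 7 passed through LRE libraries alone, 3 of them called higher. For a feature of this kind the filter itself set the raw counts of the genotypes apart, though not every one was called.

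A total of 1434 tested features did not pass the threshold, which does not show that they were equal. For 361 of these the 95% interval of the difference lay within 2-fold in both directions. For 82 it reached past 4-fold, so these libraries do not bound the difference below that size. The feature just inside the threshold had an adjusted p of 0.0497 and a log2 fold change of -1.04. The one just outside had 0.0502 and 1.29.

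The 87 features over 4-fold lower in LRE were scarce in LRE and abundant in KO. In LRE they held 0.801%, 0.541%, 0.629% and 0.736% of all counts in replicates 1 to 4, a mean of 0.677% ± 0.115 (SD, n = 4). In KO they held 17.6%, 8.99%, 2.73% and 18.2%, a mean of 11.9% ± 7.4. The KO libraries were thus all above the LRE libraries, but replicate 3 stood much nearer to LRE than to replicates 1 and 4. Since these features were picked for this difference, the shares are a description and carry no test. Their median log2 fold change was -4.43, with quartiles at -8.16 and -2.51. Of the 87, 9 had no count in any LRE library, and 29 had at most 3 counts over all 4. Fitted fold changes of such features depend on the prior count. With the 9 set to the bound that a floor of 3 counts over the group gives, the median was again -4.43. A median hardly depends on the size of extreme values, and the others of the 29 stayed as fitted, so this check is weak. All 87 had a count in every KO library, and 86 or 87 of them had at least 10. In LRE 54 to 69 had a count, and 12 to 19 had at least 10. The count filter shaped this contrast. Among all features called lower, 68 passed it through KO libraries alone. By that selection, such a feature had at least 10 counts in every KO library and fewer than 10 in every LRE library. How many of the 87 were of this kind was not counted, so these tallies are a description.

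**Figure D2:**
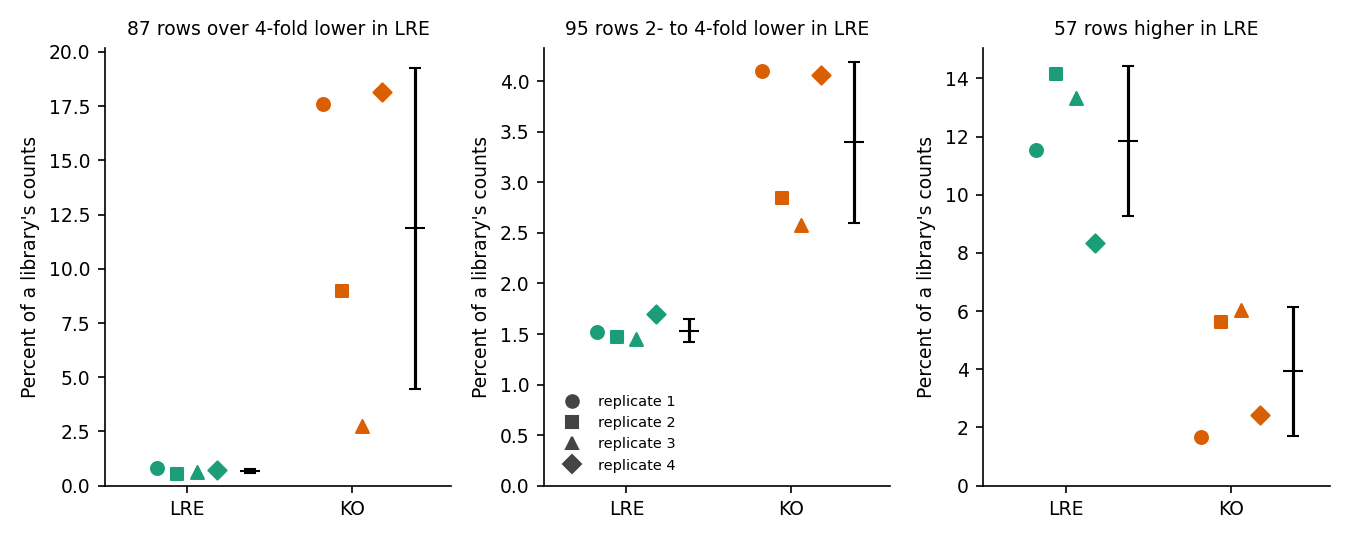
Percent of each library's counts (vertical axis, starting at 0) on 3 classes of features at ZT8, with 1 point per library, marker shape giving the replicate, and the black bar the mean ± SD of 4 libraries. KO replicates 1 and 4 are highest on both lower classes and lowest on the higher class, while the LRE libraries sit close together on the lower classes.

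The amount of these features rose and fell as a block between the KO libraries. KO replicate 3 had the lowest CPM of the 4 KO libraries for 81 of the 87 features, and replicate 1 or 4 the highest for 86. The order 4, 1, 2, 3 was seen for 51 features and the order 1, 4, 2, 3 for 27. Relative to KO replicate 1, the median feature stood at 1.11 in replicate 4 (quartiles 0.90 and 1.25), at 0.43 in replicate 2 (0.32 and 0.55) and at 0.17 in replicate 3 (0.087 and 0.26). Their ranking by CPM was also close between these libraries, with a rank correlation over the 87 features of 0.95 between replicates 1 and 4, 0.84 between 1 and 2 and 0.64 between 1 and 3. Features are not independent replicates, and these values describe the libraries only. In bulk tissue, fewer cells of a type and less RNA per cell cannot be told apart.

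The feature with the highest mean in KO among those lower in LRE, singled out after its values were seen, held between 15% (replicate 3) and 25.99% (replicate 2) of the counts on the 87 features in KO libraries. It stood at 344, 9.6, 23.0 and 12.2 CPM in LRE replicates 1 to 4 and at 51759, 24201, 3674 and 49940 CPM in KO replicates 1 to 4. The ranges did not overlap, although KO replicate 3 was over 10 times lower than KO replicates 1 and 4. The LRE level rested on 32 counts in replicate 1 and on 1 to 3 counts in the other libraries. Summed over the libraries, the scaled level in KO was 355.5 times that in LRE (exact 95% interval 258 to 505, counting error only), and the fitted log2 difference was -8.39 ± 1.13 (SE; edgeR adjusted p = 8.33e-05).

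The naming rule took rows 24203 and 3668 as the lower features with the largest fitted fold changes, which were nearly equal; their order depended on the fit. Both passed the count filter through the KO libraries alone, so the filter itself set their raw counts apart. No p of the comparison at ZT8 is given for them. Row 24203 had no count in any of the 4 LRE libraries and 133, 40, 18 and 313 counts in KO replicates 1 to 4, or 2019, 599, 164 and 2367 CPM. Against a floor of 3 counts over the LRE group, it was at least 183.7-fold higher in KO, and the lower limit of the exact 95% interval of the ratio was 149. It also had no count in the 4 WT libraries of ZT8.

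For row 3668 a single count was found in LRE, in replicate 4, against 449, 231, 30 and 611 counts in KO replicates 1 to 4. The KO levels of 6815, 3457, 273.5 and 4621 CPM again put replicate 3 far below the others, and still above every LRE library. With 1 count in LRE the ratio of KO to LRE is poorly bounded, at 1444 with an exact interval of 259 to 57090 that covers counting error only. The feature with the smallest p, which was not one of these 2, behaved alike: it had 1 count in LRE and stood at 1973, 748, 410 and 2299 CPM in KO. It too passed the count filter through KO libraries alone, so its raw counts were set apart in advance.

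Another 95 features were lower in LRE by 2- to 4-fold and were present in both genotypes. All 95 had a count in each of the 8 libraries. They held 1.53% ± 0.11 of counts in LRE (SD, n = 4) and 3.395% ± 0.80 in KO. KO replicate 3 was again the lowest KO library for most of them, 76 of 95, and replicate 1 or 4 the highest for 94. The median feature stood at 3.68 times its LRE mean in KO replicate 1, 2.14 times in replicate 2, 1.66 times in replicate 3 and 3.59 times in replicate 4. The order of the KO libraries was thus that seen for the 87 features, at smaller size.

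The lower feature with the highest mean of log2 CPM over the 8 libraries had counts in all of them. It stood at 1739, 1334, 1226 and 1970 CPM in LRE and at 9775, 4026, 2744 and 12010 CPM in KO. All 4 KO libraries lay above the LRE range, replicate 3 nearest to it. The log2 difference was -2.19 ± 0.47 (SE; edgeR adjusted p = 0.00563).

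The 57 features higher in LRE were detected in both genotypes, with at least 10 counts for 56 or 57 of them in each LRE library and for 27, 38, 53 and 47 in KO replicates 1 to 4. They held 11.5%, 14.2%, 13.3% and 8.33% of counts in LRE replicates 1 to 4 and 1.66%, 5.62%, 6.03% and 2.43% in KO replicates 1 to 4, or 11.8% ± 2.6 against 3.93% ± 2.21 (SD, n = 4). Here the order of the KO libraries was turned round, with replicate 1 the lowest KO library for 41 features and replicate 4 for 13. Replicate 3 was the highest for 29 and replicate 2 for 24. The median feature stood at 0.22 of its LRE mean in KO replicate 1, 0.49 in replicate 2, 0.50 in replicate 3 and 0.30 in replicate 4. KO replicates 2 and 3 were thus at nearly the same ratio here, whereas replicate 3 was nearer to LRE than replicate 2 on the 87 lower features (medians of 4.69 and 9.55 times the LRE mean). The count of higher features was unsteady. It was 9 without KO replicate 1, 12 without KO replicate 4, 14 to 32 without any single LRE library, 65 without KO replicate 2 and 247 without KO replicate 3.

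**Figure D3:**
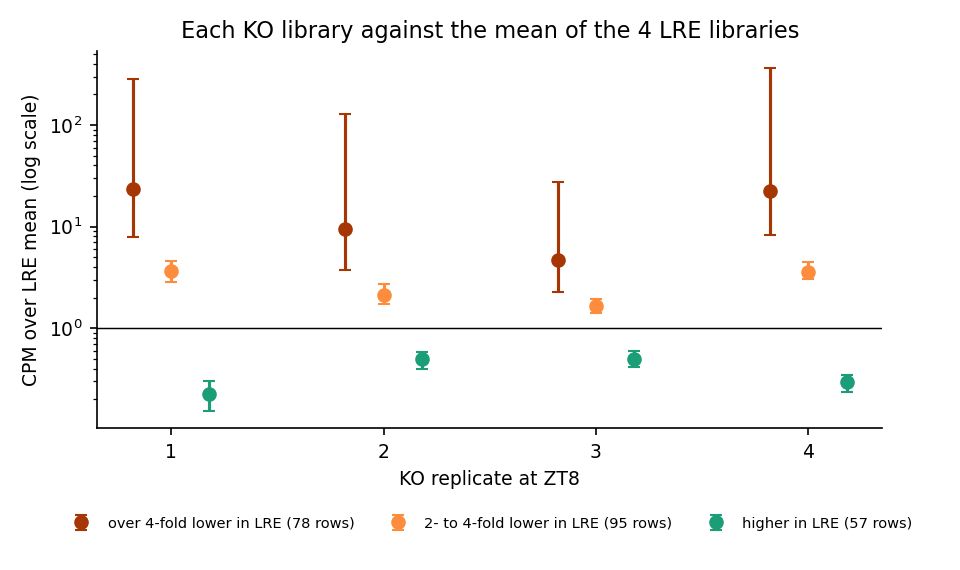
CPM of each KO library over the mean of the 4 LRE libraries (vertical axis, log scale) by KO replicate (horizontal axis), as the median feature of each class with quartiles as bars; features with no LRE count (9 of the 87) are left out. Ratios are largest in replicates 1 and 4 for the lower classes, and smallest there for the higher class.

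The largest fold change among higher features was that in row 16473. It stood at 1213, 3705, 3517 and 1175 CPM in LRE and at 243, 658.5, 547 and 492 CPM in KO. LRE replicates 2 and 3 were high and replicates 1 and 4 well below them, and all 4 lay above the KO range. The log2 difference was 2.30 ± 0.48 (SE; edgeR adjusted p = 0.00459). Next was row 25199, a scarcer feature. It stood at 193, 336, 207 and 196 CPM in LRE and at 75.9, 44.9, 91.2 and 52.9 CPM in KO. LRE replicate 2 was high and the other 3 were close together. The log2 difference was 1.79 ± 0.36 (SE; edgeR adjusted p = 0.00350), on 3 to 10 counts per KO library.

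The most abundant of the higher features took up several percent of some libraries. It stood at 36462, 47090, 41692 and 21256 CPM in LRE and at 7043, 21148, 19764 and 10672 CPM in KO. The lowest LRE library lay just above the highest KO library, and the call was near the threshold, at a log2 difference of 1.32 ± 0.42 (SE; edgeR adjusted p = 0.0484). The higher feature with the smallest p was scarcer, at 215 to 337 CPM in LRE and 30.4 to 105 CPM in KO (log2 difference 1.78 ± 0.36, SE; edgeR adjusted p = 0.00332).

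**Figure D4:**
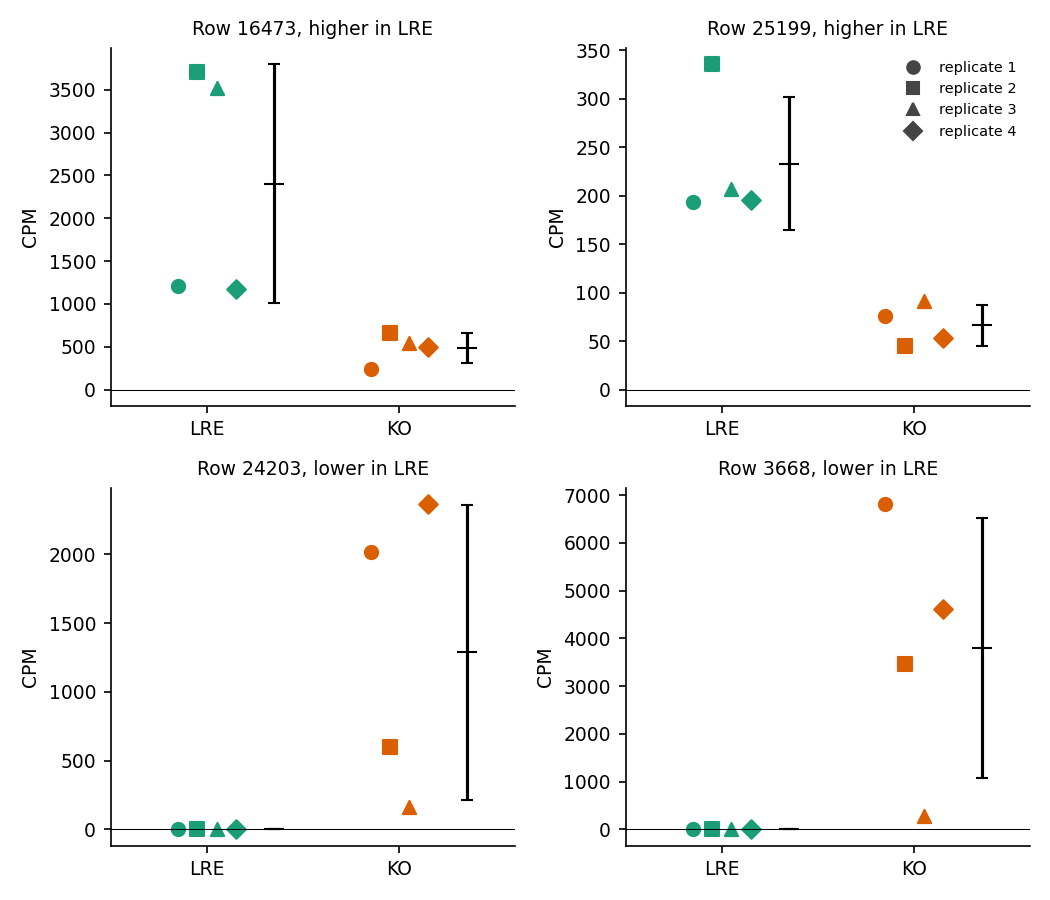
CPM at ZT8 (vertical axes) of the 2 features with the largest fold change in each direction, with 1 point per library, marker shape giving the replicate, and the black bar the mean ± SD of 4 libraries. The features in rows 24203 and 3668 are near 0 in LRE and lowest in KO replicate 3 among KO libraries; those in rows 16473 and 25199 are above the KO range in all 4 LRE libraries.

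WT libraries of the same time place these levels. In a fit of the 12 libraries of ZT8, LRE differed from WT at 26 of 1673 features, 1.55%, and KO from WT at 277, 16.6% (edgeR, adjusted p under 0.05). The features were filtered on LRE and KO libraries, and many more passed through KO alone than through LRE alone. The filter thus favoured features abundant in KO, and these counts do not compare LRE and KO with WT on even terms. Both comparisons use the same 4 WT libraries, and the count for LRE ran from 0 to 70 when single libraries were left out. It was 0 without WT replicate 2, WT replicate 4 or LRE replicate 3, where 186, 171 and 197 features had an unadjusted p under 0.05 by edgeR, and 70 without KO replicate 3, which enters only the shared spread and scaling. Without WT replicate 3 or LRE replicate 1 it was 2, and without LRE replicate 2 it was 5. The count for KO was 173 and 181 without WT replicates 1 and 2, and 153, 522 and 140 without KO replicates 1, 3 and 4. The 87 features held 0.822% to 1.12% of counts in WT, against 0.541% to 0.801% in LRE and 2.73% to 18.2% in KO, so WT lay close above LRE. The 57 higher features held 4.56% to 8.21% in WT, which overlapped the KO range and, at its top, nearly met the LRE range. Their median log2 fold change was 0.70 for LRE over WT and -0.65 for KO over WT, where all tested features had medians of 0.00 and 0.09. Both classes were picked for their LRE and KO values at ZT8. The gap between LRE and KO beside WT thus follows from the choice, and these values are a description. Row 25199 stood at 180 ± 28 CPM in WT (SD, n = 4, scaled over the 12 libraries). The log2 difference of KO from WT was -1.37 ± 0.34 (SE; edgeR adjusted p = 0.00833). That of LRE from WT was 0.42 ± 0.28 and did not pass (edgeR adjusted p = 0.515). Row 16473 stood at 272 to 1343 CPM in WT and passed the threshold in neither comparison with WT (adjusted p = 0.0909 for LRE and 0.331 for KO by edgeR). Rows 25199 and 16473 were named for their LRE and KO values at ZT8, which these comparisons reuse. Their p-values against WT are therefore no independent evidence, and do not show which genotype departs from WT.

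Whether the difference belonged to ZT8 was asked by testing it against the difference at the other times, in a fit of the 48 LRE and KO libraries over the same features. LRE minus KO at ZT8 differed from its mean over the other 5 times at 81 features, 4.84% (edgeR, adjusted p under 0.05). For 76 of these the value at ZT8 was the more negative. Of the 87 features over 4-fold lower, which were picked by the same ZT8 values, 41 were among them. This count was unsteady: it was 230 without KO replicate 3 of ZT8 and 4 without KO replicate 4, and 0 without LRE replicate 2 or 3, where 405 and 401 features had an unadjusted p under 0.05 by edgeR. It was 13, 16 and 10 without LRE replicate 1, LRE replicate 4 and KO replicate 1. With the replicate number as a block in each time it was 3, with limma-voom 10 and with DESeq2 217.

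Against ZT20 alone the contrast was larger, with 423 features that differed, 25.3%. At ZT8 the difference was the more negative for 302 of them and the more positive for 121. All but 1 of the 87 features were among the former, and 36 of the 57 higher features among the latter; both classes were picked by their values at ZT8, which this contrast reuses, so the tallies are a description. The count was 272 without KO replicate 4 of ZT8 and 288 to 556 without any other single library of ZT8. At ZT20 itself the 48-library fit called 123 features, 7.35%, of which 114 were higher in LRE; 52 of the 87 were called, none of them lower in LRE. At ZT8 the same fit called 135 features, 8.07%, fewer than the 8 libraries alone, and 77 of the 87 were among them. At ZT12 it called 26, 1.55%, of which 21 were lower in LRE, with 10 of the 87. At ZT0, ZT4 and ZT16 it called none, 0%, with 90, 51 and 56 features at an unadjusted p under 0.05 by edgeR. The features were filtered on the LRE and KO libraries of ZT8. Those too scarce at ZT8 were not tested at any time, so these counts do not compare the times on even terms.

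The shares over the day show which groups carried the 87 features. In LRE the 4 libraries held 0.541% to 0.801% of counts on them at ZT8 and 0.589% to 0.701% at ZT12, but 4.86% to 24.0% at ZT16 and 1.00% to 19.2% at ZT20. At ZT0 LRE ran from 1.37% to 17.8% and at ZT4 from 1.03% to 17.9%. In KO the share was 0.741% to 0.876% at ZT20, a range that overlaps that of LRE at ZT8 and reaches slightly above it. At ZT0 KO ran from 1.15% to 7.86%, at ZT4 from 0.830% to 18.6%, at ZT12 from 1.16% to 17.3% and at ZT16 from 4.78% to 19.8%. LRE at ZT8 and ZT12 and KO at ZT20 were thus uniformly low, whereas most other groups of these genotypes mixed low and high libraries. WT was at 0.822% to 1.33% in all but 3 of 24 libraries, which were 1 of ZT0 and 2 of ZT16 and reached 7.01%.

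**Figure D5:**
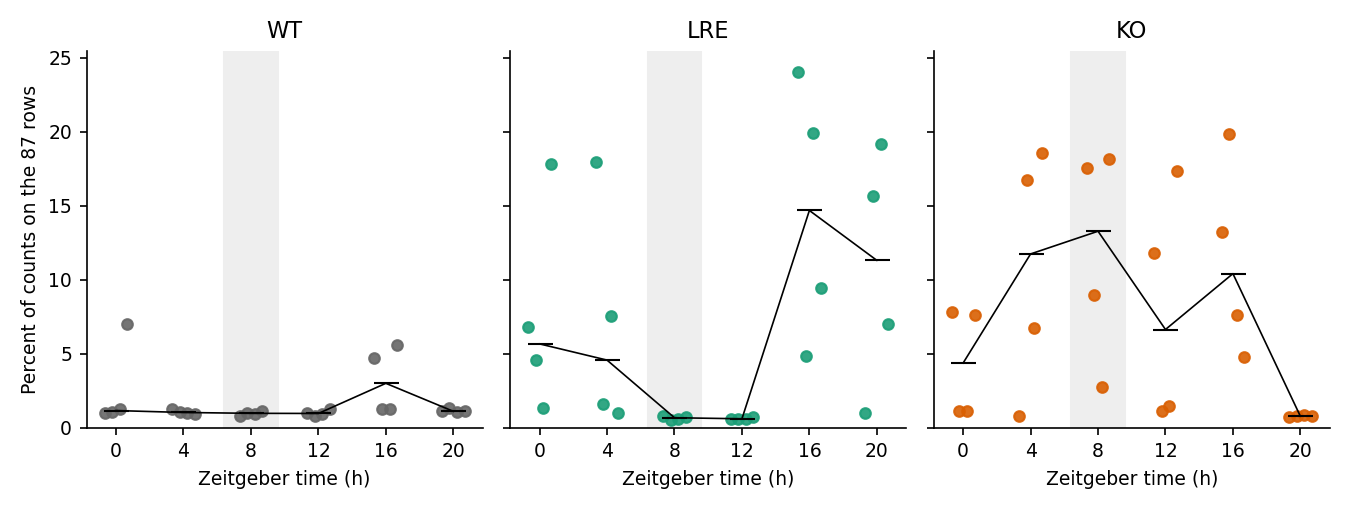
Percent of counts on the 87 features over 4-fold lower in LRE at ZT8 (vertical axis) by zeitgeber time (horizontal axis, hours) in WT, LRE and KO, with 1 point per library and the black line joining medians of 4 libraries; ZT8, where the features were picked, is shaded. LRE is low at ZT8 and ZT12, KO at ZT20, while other LRE and KO groups have highest libraries between 7.86% and 24.0%.

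The named features followed the same course, on CPM scaled over all 72 libraries. Row 3668 reached 7319 CPM in LRE at ZT20, where KO ran from 7.2 to 30.1 CPM, and 12140 CPM in LRE at ZT16. Row 24203 reached 4554 CPM in LRE at ZT20 and had a count in 1 of 4 KO libraries of that time. The named features were chosen by their difference at ZT8, so interaction p-values that reuse it are no independent evidence. For row 16473 the order was turned round as well, at 550 to 906 CPM in LRE and 999 to 2427 CPM in KO at ZT20 (interaction 3.37 ± 0.93, SE, adjusted p = 0.00687 by edgeR). That in row 25199 stood at 64.3 to 136 CPM in LRE and 111 to 259 CPM in KO at ZT20, ranges that overlapped (interaction 2.56 ± 0.56, SE, adjusted p = 0.000919 by edgeR).

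Libraries of the series also vary within groups along a main axis, and the 2 groups of ZT8 lay apart on it. The axis was computed from the within-group deviations of the 64 other libraries, of which it held 34.8%, and the 8 libraries were then placed on it. Their scores, in units of the within-group SD, were 1.32 ± 0.05 in LRE (SD, n = 4) and -1.36 ± 1.33 in KO. KO replicates 1 to 4 stood at -2.57, -0.75, 0.21 and -2.35, and WT at 0.92 to 1.32. All 57 higher features had a positive loading and 86 of the 87 lower ones a negative loading, while 882 of 1673 tested features had a positive one. Over the 1673 features, loading and log2 fold change correlated at r = 0.83, a description without a test, since features share libraries. With the score as a covariate, 39 features differed, all lower in LRE, and 36 of them were among the 87; no feature was called higher, with 40 at an unadjusted p under 0.05 by edgeR. All LRE scores lay above all KO scores, so that fit cannot separate the axis from the genotype in these 8 libraries. The part of this axis in the result was not tested.

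LRE libraries of ZT8 carry plate position number 3 and KO libraries number 4, with the letters I to L in both. Position number and genotype cannot be told apart in this comparison. The letter runs with the replicate number, so it is covered by the fit with replicate as a block.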

How the data were processed

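RNA of white adipose tissue was sequenced in 72 samples; the 8 of LRE and KO at ZT8 are compared here. The authors deposited whole-number counts, unnormalized. Reads were aligned with STAR 2.5.4b, with builds mm10 and GRCm38, per the submitters' processing notes; per the file headers, alignments were sorted and deduplicated. The sources used here do not give the counter, annotation, strand use or role of molecular identifiers. Columns were tied to samples by plate position; 108 columns that match no sample were not used. Rows that hold no gene could not be told apart and stayed in library totals.

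Counts were tested in R 4.3.3 with edgeR 4.0.16 (glmQLFit, glmQLFTest), TMM scaling and Benjamini-Hochberg adjustment over the 1673 tested features, in fits of the 8 libraries, of 48 LRE and KO libraries for the interactions, and of 12 libraries for WT. SE is the log2 fold change over the square root of F; log2 CPM uses a prior count of 2. Alternatives used DESeq2 1.42.0 and limma 3.58.1. The edgeR script was tested on simulated data. Intervals and floors cover counting error only. Named features were the 2 with the largest fold change in each direction among calls with ranges that did not overlap and at least 10 counts in every library of the higher group; others are described without a number. The comparison, classes and tests were chosen with earlier results of these data known. Gene lists fixed for the case of named rows need identifiers and were not used.

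No source used here says that replicate numbers pair samples, so the number is not a block in the main tests, and fits with it are given as alternatives. Deviations of same-numbered LRE and KO libraries correlated only weakly, which does not settle whether samples were paired.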

Additional observations from a re-analysis of the deposited data

Results flagged for a closer look

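LRE minus KO differed between ZT8 and the mean of the other times at 81 features and between ZT8 and ZT20 at 423, by tests of the difference itself (edgeR, adjusted p under 0.05). Among the named features, the difference at ZT8 and ZT20 was unequal in row 16473 (adjusted p = 0.00687), row 25199 (0.000919), row 24203 (8.998e-05) and row 3668 (0.000272), and row 25199 also differed from the other times (0.0226), where the remaining 3 did not pass. These features were chosen by their difference at ZT8, which the tests reuse, so the p-values are no independent evidence. Rows 24203 and 3668 also passed the count filter through KO libraries of ZT8 alone, which set their ZT8 counts apart in advance. The p-values of rows 24203 and 3668 are therefore listed only, and no conclusion is drawn from them. Fitted sizes for rows 24203 and 3668 are left out, since groups with no or hardly any count make them depend on the prior count.

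In 5 of 54 sets of 4 libraries, 1 value stood well away from the rest; chance gives about 1 in 20. WT ZT0 replicate 4 held 7.01% of its counts on the 87 features, against 1.02% to 1.25% in the other WT libraries of that time. The feature in row 25199 stood at 336 CPM in LRE ZT8 replicate 2. That in row 3668 stood at 12.2 CPM in LRE ZT8 replicate 4, on 1 count. The feature with the smallest p stood at 10.7 CPM in LRE ZT8 replicate 1, also on 1 count, and the feature with the highest mean in KO at 343.6 CPM in the same library.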

How the results depend on the processing

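The total of 239 features was within 1.5 times (188 to 349) with RLE or upper-quartile scaling, DESeq2, limma-voom, all 72 libraries in the fit, thinned counts and a replicate block; upper-quartile scaling moved the median of all features from 0.01 to 0.11. DESeq2 raised the higher features to 115. With sample quality weights 386 were called, 153 of them higher. The fit of 48 libraries called 135 (15 higher, 120 lower), and that of 72 libraries 22 higher. Without a count filter 844 of 16732 were called (158 higher, 686 lower), and with at least 10 counts in all 8 libraries 123 of 560 (84 lower). Thinned counts gave 36 higher, and the axis score 39 in all, 0 higher and 39 lower. Chosen after seeing the data, the fit without KO replicates 1 and 4 called 79 (5 higher, 74 lower), and scaling without the 87 features called 251. Without single libraries the counts ran from 131 to 569, higher from 9 to 247 and lower from 119 to 322. In those 8 fits 83 to 87 of the 87 features were called, with limma-voom 76. The 87 were picked as calls in these same libraries, which the fits reuse with the same count filter. Being called again was thus favoured in advance, and the tally is no independent evidence.

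For ZT8 against the other times, DESeq2 called 217 and limma-voom 10, with 0 to 230 without single libraries; against ZT20 the range was 272 to 556. For LRE against WT, upper-quartile scaling called 16 and single libraries 0 to 70; for KO against WT the range was 140 to 522. Thinned libraries differed by -1567 features with a count, by 3.35 percentage points on the 10 largest features and by 9.41 on tested features (exact permutation p = 0.0286 for each, n = 4, adjusted over 3 measures). Unthinned, the differences were -1888 features, 3.43 and 9.49 percentage points. Without single libraries these unthinned differences ran from -2291 to -1397, from 2.77 to 3.95 and from 7.996 to 10.9. Thinned counts were not refitted in this way, and 3 against 4 cannot reach the threshold. The difference in total counts ran from -22230 to 9825 and turned its sign without KO replicate 4. The named features kept their direction in all alternatives that tested them; with the axis score rows 16473 and 25199 lost the call at log2 differences of 1.54 and 1.36, from 2.30 and 1.79 (adjusted p = 0.537 and 0.639 by edgeR). The larger fitted fold of rows 24203 and 3668 changed places with RLE scaling, DESeq2 and limma-voom, among others.

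With the replicate number as a block, 270 features differed at ZT8, 92 higher and 178 lower, and 3 against the other times. Deviations of same-numbered libraries correlated at -0.01, 0.06, 0.06 and 0.05. KO replicates 2, 3 and 4 correlated best with the LRE library of their own number, and KO replicate 1 did not. Among LRE libraries only replicate 2 correlated best with its own number. All these values were small, and they do not settle whether the samples are paired. Causes of these shifts were not tested. Depth limits what can be seen: 1673 of 32377 features entered the test.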

Other observations

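Outside ZT8, libraries that were rich in the 87 features did not all carry them in the same proportions. In all, 12 of 20 LRE libraries, 11 of 20 KO libraries and 3 of 24 WT libraries of other groups or times held at least the 2.73% of KO ZT8 replicate 3. In 20 of these 26 libraries the rank correlation over the features with KO ZT8 replicate 1 was 0.43 to 0.96. LRE ZT0 replicates 1 and 2 (0.09 and 0.06), LRE ZT4 replicate 3 (0.14), KO ZT0 replicate 4 (0.22), WT ZT0 replicate 4 (-0.06) and WT ZT16 replicate 1 (0.03) were below that range. These 6 libraries had 9 to 13 of the 87 features without a count, and their 5 largest features held 43.7% to 61.8% of the block, which overlaps the 37.97% to 53.3% of the other 20. LRE ZT0 replicate 4, with 17.8% of its counts on the block and a rank correlation of 0.93, had a count for all 87. KO ZT16 replicate 1 also had 18 features without a count, on 5293 counts in all. These values describe libraries picked by their share and carry no test.

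The features over 4-fold lower lie nearer to each other in the deposited table than other tested features lie to them. Of the 87, 22 (25.3%) had another of the 87 within 20 rows, against 146 of the 1586 other tested features (9.21%), and 3 pairs stood in adjacent rows. The order of the rows is not given in the sources used here, so no position in the genome follows from it. Some tested rows that stand close together hold equal values, so neighbours need not be separate measurements. Whether this holds for any of the 87 was not tested.

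Features of ZT8 varied more between KO than between LRE libraries also where no difference was called. The median coefficient of variation over 4 libraries was 27.2% in LRE and 37.9% in KO for the 1434 features that did not pass. For the 57 higher features it was 24.7% and 44.2%, and for the 95 features 2- to 4-fold lower 29.2% and 43.0%. For the 87 it was 67.5% and 69.0%, where LRE values rest on few counts.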
